A study of Mus musculus with 6 samples.

Results

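The genes described here are 52 genes of S phase and DNA replication, chosen by symbol from a list of the replication machinery and its S phase partners. Measured values did not pick the genes, but earlier results of these data were known when the list was chosen. All 52 were found among the 23420 gene symbols of the count tables, and all 52 passed the filter on low counts that left 13087 genes for testing. Before S phase, origins are licensed when the MCM helicase is loaded onto DNA. At the onset of S phase, cyclin E and its kinase partner help to fire the origins, the helicase is completed by Cdc45 and the GINS complex, and polymerases copy the strands behind it. E2F transcription factors switch many of these genes on together as cells leave G1 in a growing tissue such as an epithelial bud.

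RNA was measured by sequencing in 6 samples of lacrimal gland bud, the epithelial outgrowth that gives rise to the tear gland, laser-captured at E14.5 from mice of mixed background. The 3 Control samples were Le-Cre, and the 3 Pea3 TKO samples were homozygous null for Pea3 (Pea3-/-) and homozygous for floxed Er81 and Erm (Er81 fl/fl, Erm fl/fl) with Le-cre, so that both groups carried the Cre transgene. The files list these genes as Etv4 (Pea3), Etv1 (Er81) and Etv5 (Erm), and all encode ETS transcription factors that act downstream of FGF signalling. Le-Cre is active in the epithelium of the ocular surface, including the conjunctiva and the glands that bud from it, so Erm and Er81 were deleted there, whereas Pea3 was missing from every cell of the animal. The labels do not say whether samples of a group came from separate embryos, and p-values therefore measure the spread between these samples only.

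Etv5 fell from 961 to 1202 CPM in Control to 88.2 to 177 CPM in Pea3 TKO, and Etv4 and Etv1 were also lower without overlap between the groups. CPM is the count of a gene relative to the TMM-scaled total of its sample. Total counts ran from 14194775 to 17860140 per sample, at which 3 counts correspond to 0.169 to 0.210 CPM. The 8 markers of the bud epithelium summed to 3555 to 4382 CPM in Control and 5423 to 6234 CPM in Pea3 TKO, with Pax6, Cdh1, Krt8 and Krt18 called higher, Sox10 and Sox9 called lower, and Epcam, at 1201 to 1500 CPM, and Foxc1 not called. Summed markers of endothelium, muscle, melanocytes and nerve stayed at or under 7.76 CPM in each. Immune markers summed to at most 22.2 CPM and blood markers to 31.3 to 221 CPM, the most in Pea3 TKO 3. Samples within the Pea3 TKO group were not alike. The 4 Y-linked genes examined summed to 136 to 175 CPM in the 3 Control samples and to 139 CPM in Pea3 TKO 3, against 0.445 and 0.210 CPM in Pea3 TKO 1 and 2. The 10 mesenchymal markers summed to 404 and 567 CPM in Pea3 TKO 1 and 2, to 14.2 CPM in Pea3 TKO 3 and to 19.2 to 117 CPM in Control. The 10 epidermal markers, of which 9 were called higher, summed to 568 to 1629 CPM in Control and 5288 to 7544 CPM in Pea3 TKO. The part of these differences in the results below was not tested, except by the fits that leave out a sample or add Y-linked expression as a term.

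The promoters of these genes were read first for the letters that E2F and its partners are known to bind, because these genes are the textbook targets of E2F. RefSeq windows of 300 bases (GRCm38.p6), from 250 bases before to 50 bases after an annotated start, were at hand for 39 of the 52 genes, in 43 windows. Atad2, Ccne2, Dscc1, Exo1, Gins1, Gins2, Gins4, Gmnn, Mcm4, Prim2, Rfc2, Tipin and Usp1 had none. On either strand, the E2F letters TTTCCCGC or TTTGGCGC were found in 34.9% of the 43 windows, in 1.56% of 32851 windows of all genes and in 2.84% of 12505 windows of genes tested. The looser form TTTNNCGC, which contains both, was found in 46.5% against 5.17% and 8.24%. The CCAAT box, letters CCAAT, was found in 65.1% against 37.4% of either background. The CHR element of cell cycle genes, letters TTTGAA, was found in 16.3%, below the 17.9% of all windows and above the 11.7% of tested genes. The letters CCGGAAGT, a high-affinity form of the ETS site, were found in 18.6% against 3.89% of all windows and 7.60% of those of tested genes, in Gins3, Mcm10, Pold3, Rfc3, Rfc4, Rpa2, Tyms and Wdr76. These are matches of letters and not sites shown to be bound.

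The 3 windows that follow, picked as examples, show the E2F letters in genes whose difference between the groups did not pass the test. Hells still lay lower without overlap, at 61.2 to 88.7 CPM in Pea3 TKO and 91.7 to 104 CPM in Control. Each is the 120 bases just before the annotated start, and capitals mark TTTNNCGC on either strand. CCAAT is not marked in these windows, and Mcm6 also holds it on the opposite strand, at -57 and -14 from the start.
Mcm6, chr1:128359706-128359825, minus strand: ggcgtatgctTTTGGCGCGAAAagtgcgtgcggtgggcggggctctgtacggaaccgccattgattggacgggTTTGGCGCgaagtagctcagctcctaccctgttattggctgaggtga
Hells, chr19:38930870-38930989, plus strand: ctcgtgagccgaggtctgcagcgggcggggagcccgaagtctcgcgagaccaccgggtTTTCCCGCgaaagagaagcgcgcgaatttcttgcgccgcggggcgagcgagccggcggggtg
Cdca7, chr2:72476099-72476218, plus strand: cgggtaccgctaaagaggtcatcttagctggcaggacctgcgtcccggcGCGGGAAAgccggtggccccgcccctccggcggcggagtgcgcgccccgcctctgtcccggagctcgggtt

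The next 3 windows, also picked as examples, are of genes that were lower in Pea3 TKO. The same stretch held CCAAT on 1 strand or the other, marked in capitals. The 300-base window of each held neither strict nor loose E2F letters.
Rrm2, chr12:24708134-24708253, plus strand: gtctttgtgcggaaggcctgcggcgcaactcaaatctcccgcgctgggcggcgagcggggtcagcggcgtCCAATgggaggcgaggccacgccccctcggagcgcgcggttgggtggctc
Mcm10, chr2:5012792-5012911, minus strand: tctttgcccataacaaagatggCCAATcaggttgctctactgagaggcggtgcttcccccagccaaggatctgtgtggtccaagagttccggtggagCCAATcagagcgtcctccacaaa
E2f8, chr7:48881597-48881716, minus strand: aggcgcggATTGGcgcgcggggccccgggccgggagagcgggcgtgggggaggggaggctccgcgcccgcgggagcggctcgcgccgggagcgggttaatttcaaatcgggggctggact

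By gene, the strict E2F letters were found in 2 of 11 genes called lower, Rfc3 and Casp8ap2, and in 13 of 28 not called. CCAAT was found in 10 of 11 called lower, all but Ccne1, and in 16 of 28 not called. The ETS letters were found in 3 of 11 and 5 of 28. The windows are short and cover 39 of the 52 genes, and these counts are given as a description.

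In Pea3 TKO, 15 of the 52 genes were lower and none was higher at an adjusted p under 0.05 by the edgeR quasi-likelihood test with Benjamini-Hochberg adjustment over all genes tested. The 15 are 28.8% of the 52, whereas 11.3% of all genes tested were called lower and 13.6% higher. Without adjustment, 21 of the 52 were lower and 0 higher at a p under 0.05. The 3 groups of steps in which the lower genes lay most were cyclin E with E2f8 (3 of 3), strand processing and repair (4 of 8) and chromatin (3 of 8), while none of the 6 subunits of the MCM2-7 helicase passed the test. The median log2 fold change was -0.33 against 0.01 over all genes tested, and 49 of the 52 values were negative, or 94.2% against 49.2% of all genes. In 22 of the 52 every Pea3 TKO sample lay below every Control sample, and in none above, whereas 21.3% of all genes tested lay below in this way and 22.5% above. In bulk samples such as these, fewer cells in S phase and less RNA of these genes per cell cannot be told apart.

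**Figure D1:**
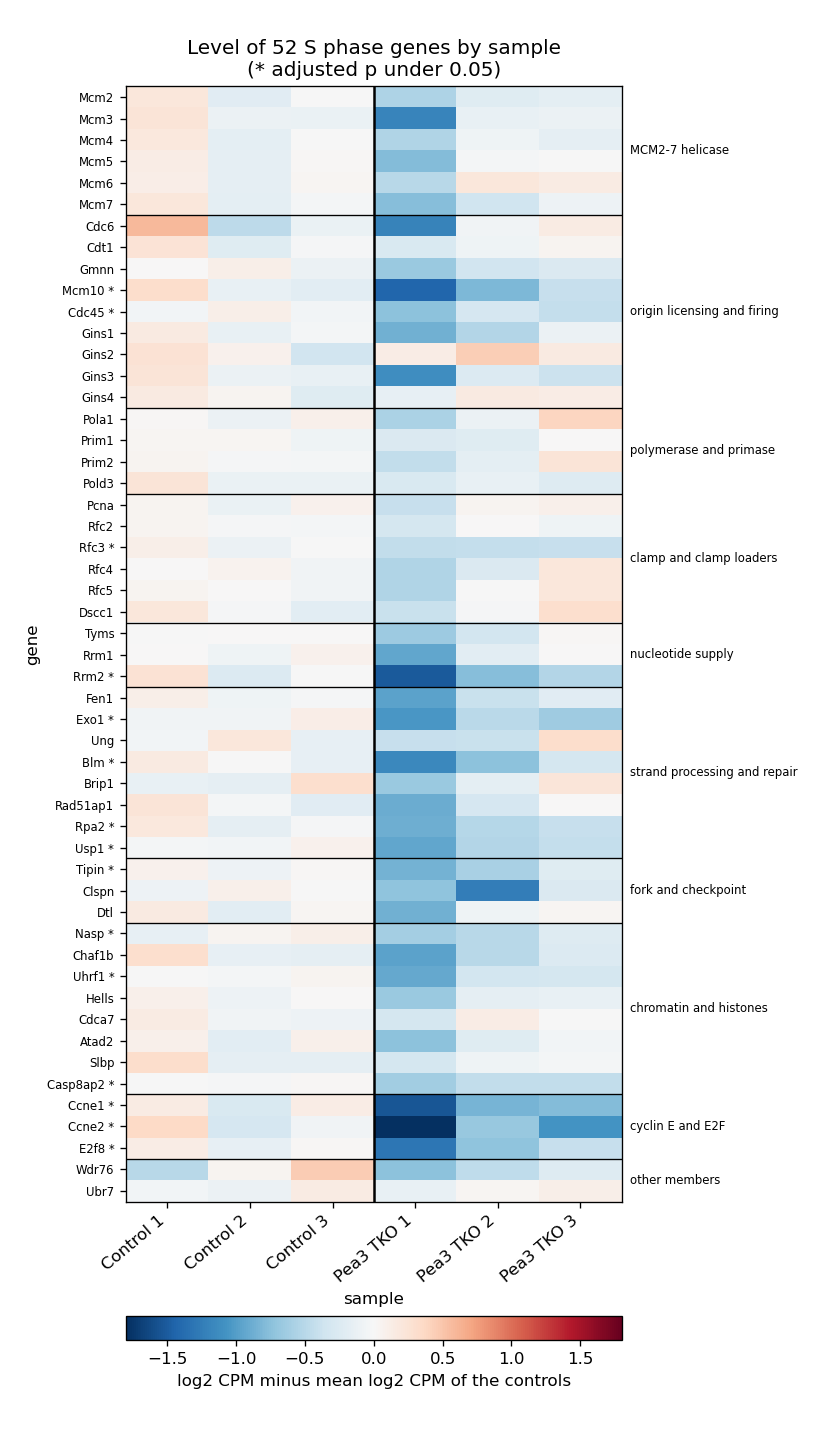
Level of the 52 genes in each sample, as log2 CPM minus the mean log2 CPM of the 3 Control samples, with genes in rows by role, samples in columns, blue for lower and red for higher, and an asterisk at the 15 genes with an adjusted p under 0.05. Pea3 TKO 1 is the bluest column, and the rows of Ccne1, Ccne2 and Rrm2 are blue in all 3 Pea3 TKO samples.

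The summed level of the 52 genes was 9271, 7956 and 8507 CPM in Control 1 to 3 and 5175, 7274 and 7817 CPM in Pea3 TKO 1 to 3. All 3 Pea3 TKO samples were below the lowest Control sample, with Pea3 TKO 1 well apart from the other two. The means were 8578 ± 660 and 6755 ± 1395 CPM (SD, n = 3), a level 21.3% lower in Pea3 TKO. Pea3 TKO 1 was the lowest of its group in 51 of the 52 genes and the lowest of all 6 samples in 49, whereas over all genes tested it was the lowest of its group in 35.6%. It lay below every Control sample in 50 of the 52 genes, Pea3 TKO 2 in 35 and Pea3 TKO 3 in 23, against 36.4%, 35.1% and 33.6% of all genes tested. The coefficient of variation of the 52 genes had a median of 10.3% among Control samples and 23.5% among Pea3 TKO samples, against 15.1% and 16.3% for all genes tested.

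Without Pea3 TKO 1, 7 genes were called lower, all of them among the 15 (Ccne1, Rrm2, E2f8, Exo1, Usp1, Rpa2 and Rfc3), and the median log2 fold change of the 52 was -0.15. Without Pea3 TKO 2, 5 genes were called (Ccne1, Ccne2, Exo1, Usp1 and Casp8ap2). Without Pea3 TKO 3, the one Pea3 TKO sample with Y-linked transcripts and few mesenchymal ones, 20 were called, namely 14 of the 15, all but Cdc45, with Mcm7, Gins1, Tyms, Fen1, Clspn and Chaf1b. Ccne1, Rrm2, Exo1, Rpa2 and Usp1 were called without any 1 of the Control samples. To these were added Nasp, Casp8ap2 and E2f8 without Control 1, Rfc3, Ccne2 and E2f8 without Control 2, and Mcm10 without Control 3, which made 8, 8 and 6 genes. The share of all genes called lower was not counted in the fits without 1 sample. Whether the 52 genes still exceeded that share in them was therefore not tested. With Y-linked expression as a term in the fit, which leaves the genotype effect to rest mainly on Pea3 TKO 3, no gene of the 52 was called by edgeR, 4 were lower at an unadjusted p under 0.05, and the median was -0.11. In that fit 865 of all genes tested were called in place of 3268.

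**Figure D2:**
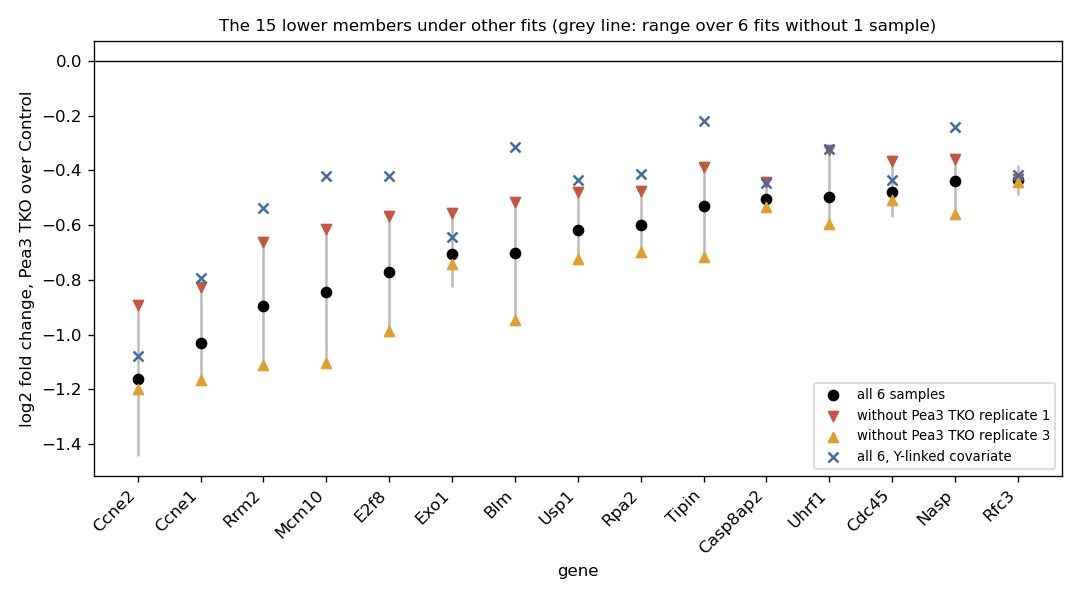
Log2 fold change of the 15 genes called lower, Pea3 TKO over Control, in the fit of all 6 samples (black), without Pea3 TKO 1 (red), without Pea3 TKO 3 (orange) and with Y-linked expression as a term (blue crosses), with a grey line for the range over the 6 fits that leave out 1 sample. Every point lies below 0, and most genes move closer to 0 without Pea3 TKO 1, Ccne2 from -1.16 to -0.89 and Tipin from -0.53 to -0.39.

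Cyclin E drives entry into S phase as the partner of Cdk2, and its 2 genes had the largest differences of the 52. Ccne1 (chr7:38097984-38107534, minus strand, GRCm38) stood at 149, 110 and 147 CPM in Control 1 to 3 and at 46.1, 74.7 and 77.8 CPM in Pea3 TKO 1 to 3. The groups were far from overlapping, and even the highest Pea3 TKO sample was below the lowest Control sample. The log2 fold change was -1.03 (SE 0.21, adjusted p = 0.0066, edgeR), and the call held in each of the 6 fits without 1 sample, with an adjusted p of at most 0.027. Ccne2 (chr4:11191351-11204779, plus strand) stood at 39.3, 24.8 and 29.3 CPM in Control and 8.19, 19.0 and 14.6 CPM in Pea3 TKO, again without overlap. Its log2 fold change of -1.16 (SE 0.31, adjusted p = 0.023, edgeR) was the most negative of the 52. Ccne2 shares 17.4% of its exonic bases with Ints8 on the opposite strand, and the strand setting of the counting is not given in the sources used here. E2f8, an atypical E2F that represses E2F target genes late in S phase, stood at 76.4, 62.8 and 70.4 CPM in Control and 28.4, 42.3 and 52.04 CPM in Pea3 TKO. The groups did not overlap, with a log2 fold change of -0.77 (SE 0.21, adjusted p = 0.025, edgeR).

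The MCM2-7 complex is the helicase that unwinds DNA at the fork, and none of its 6 subunits passed the test. Mcm5, the subunit with the highest level, stood at 497, 405 and 461 CPM in Control and 262, 441 and 449 CPM in Pea3 TKO. Pea3 TKO 2 and 3 lay within the Control range and Pea3 TKO 1 far below it. Mcm6 stood at 455, 375 and 430 CPM in Control and 295, 484 and 465 CPM in Pea3 TKO, where Pea3 TKO 2 and 3 were above all Control samples and Pea3 TKO 1 was again below them. Log2 fold changes of the 6 ran from -0.41 (SE 0.25) for Mcm3 to -0.02 (SE 0.18) for Mcm6, with adjusted p from 0.13 to 0.96, and Mcm2, Mcm4, Mcm5 and Mcm7 gave -0.32, -0.25, -0.24 and -0.39. The median of the 6 was -0.28, against -0.33 for all 52. In Mcm2, Mcm3 and Mcm7, Pea3 TKO 2 was also below every Control sample, at 306, 301 and 287 CPM, but in Mcm4 it was not. The sign for Mcm6 turned positive with upper-quartile scaling, at 0.017. The 6 subunits together summed to 1992 to 2519 CPM in Control and 1370 to 2155 CPM in Pea3 TKO, and these ranges overlapped.

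Of the 9 genes of origin licensing and firing, Mcm10 and Cdc45 were lower. Mcm10, a factor needed to set the loaded helicase in motion, stood at 96.6, 70.7 and 68.1 CPM in Control and 28.8, 44.4 and 58.0 CPM in Pea3 TKO, without overlap (log2 fold change -0.84, SE 0.24, adjusted p = 0.032, edgeR). Cdc45, which joins MCM and GINS in the active helicase, stood at 76.05, 84.4 and 76.01 CPM in Control and 47.1, 63.8 and 58.6 CPM in Pea3 TKO. Its 3 Control samples were close together and all above Pea3 TKO (log2 fold change -0.48, SE 0.15, adjusted p = 0.040, edgeR). Of the fits without 1 sample, none called Cdc45, and only those without Control 3 or Pea3 TKO 3 called Mcm10. The other 7 did not pass. Cdc6 and Cdt1, which load the helicase, gave -0.33 (SE 0.34) and -0.11 (SE 0.16), while Gmnn, which encodes the Cdt1 inhibitor geminin, gave -0.42 (SE 0.14) with an adjusted p of 0.058 and no overlap.

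The 4 GINS subunits, which join in 1 complex, had unlike values. Gins1 and Gins3 gave -0.47 (SE 0.20) and -0.55 (SE 0.25), and Gins4 and Gins2 gave 0.05 (SE 0.14) and 0.23 (SE 0.18), the highest value of the 52. None of the 4 passed the test. Within each sample, the ratio of Gins3 to Gins4 counts was 0.307, 0.262 and 0.310 in Control and 0.149, 0.221 and 0.203 in Pea3 TKO, with no overlap. Gins2 shares 67.3% of its exonic bases with Gse1 on the opposite strand, so that its count may hold reads of Gse1 and its level is uncertain.

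Of the 52 genes, neither the 4 of polymerase and primase nor the sliding clamp passed the test. Pold3, an accessory subunit of DNA polymerase delta, stood at 119, 93.6 and 93.7 CPM in Control and 84.1, 92.6 and 86.6 CPM in Pea3 TKO. Its groups did not overlap, but Pea3 TKO 2 lay close to Control 2 and 3, and the log2 fold change was -0.22 (SE 0.13, adjusted p = 0.27, edgeR). Pola1, the catalytic subunit of DNA polymerase alpha, gave -0.05 (SE 0.22), and the primase subunits Prim1 and Prim2 gave -0.15 (SE 0.13) and -0.10 (SE 0.18). Pcna, the clamp that tethers polymerases to DNA, gave -0.08 (SE 0.15).

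Among the clamp loaders only Rfc3 was lower. Rfc3, a subunit of replication factor C, stood at 152, 131 and 140 CPM in Control and 104, 104 and 105 CPM in Pea3 TKO. It was the one gene of the 15 in which the 3 Pea3 TKO samples were nearly equal, and all were below Control (log2 fold change -0.43, SE 0.11, adjusted p = 0.019, edgeR). The other subunits Rfc2, Rfc4 and Rfc5 gave -0.12, -0.17 and -0.08, and Dscc1, part of an alternative clamp loader used in cohesion, gave -0.02 and turned to 0.014 with upper-quartile scaling. Rfc2, Rfc4 and Rfc5 share 15.1%, 12.7% and 10.7% of their exonic bases with genes on the opposite strand.

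Ribonucleotide reductase makes the deoxynucleotides for replication from a large subunit, Rrm1, and a small one, Rrm2. Rrm2 (chr12:24708241-24714146, plus strand) stood at 534, 379 and 444 CPM in Control and 157, 262 and 310 CPM in Pea3 TKO. The groups did not overlap, and the gene was lower by a log2 fold change of -0.90 (SE 0.23, adjusted p = 0.019, edgeR). Rrm1 stood at 532, 499 and 555 CPM in Control and 275, 464 and 532 CPM in Pea3 TKO, so that Pea3 TKO 3 reached the Control range, and it did not pass (-0.32, SE 0.21, adjusted p = 0.29, edgeR). The ratio of Rrm2 to Rrm1 counts was 1.004, 0.760 and 0.800 in Control and 0.571, 0.565 and 0.582 in Pea3 TKO. This ratio was almost the same in the 3 Pea3 TKO samples, although their levels of each gene differed widely. Tyms, the thymidylate synthase, gave -0.29 (SE 0.16, adjusted p = 0.21, edgeR).

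Of the 8 genes of strand processing and repair, 4 were lower. Exo1, an exonuclease of mismatch repair and end resection, stood at 96.7, 96.5 and 109 CPM in Control and 48.5, 72.1 and 64.8 CPM in Pea3 TKO (log2 fold change -0.70, SE 0.16, adjusted p = 0.012, edgeR). Usp1, which removes ubiquitin from Pcna and Fancd2, stood at 219, 218 and 236 CPM in Control and 117, 155 and 167 CPM in Pea3 TKO (-0.62, SE 0.14, adjusted p = 0.012, edgeR). For both genes the Control samples were close together, the groups were well separated, and the call held in all 6 fits without 1 sample. Rpa2, a subunit of the RPA complex that coats single-stranded DNA, stood at 216, 171 and 187 CPM in Control and 103, 133 and 143 CPM in Pea3 TKO (-0.60, SE 0.15, adjusted p = 0.018, edgeR). Blm, a RecQ helicase that resolves recombination intermediates, stood at 43.9, 39.1 and 35.6 CPM in Control and 17.5, 23.6 and 31.7 CPM in Pea3 TKO (-0.70, SE 0.23, adjusted p = 0.046, edgeR). Blm did not overlap between the groups but was no longer called without Pea3 TKO 1. Fen1, the flap endonuclease of Okazaki fragments, gave -0.49 with an adjusted p of 0.072, and Rad51ap1, Brip1 and Ung, which act in recombination, in fork repair and in the removal of uracil, gave -0.36, -0.18 and -0.13.

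At the fork, Tipin, which with Timeless keeps the helicase and polymerases together, stood at 233, 207 and 225 CPM in Control and 122, 148 and 191 CPM in Pea3 TKO. The groups did not overlap (log2 fold change -0.53, SE 0.16, adjusted p = 0.036, edgeR), and the call was lost without Pea3 TKO 1. Clspn, the adaptor that passes the stalled-fork signal to Chek1, gave -0.69 (SE 0.26, adjusted p = 0.080, edgeR) from low levels of 10.6 to 26.7 CPM. Dtl, which marks Cdt1 for destruction in S phase, gave -0.25 (SE 0.21).

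Of the 8 genes of chromatin and histone supply, Casp8ap2, Nasp and Uhrf1 were lower. Casp8ap2, also known as FLASH, a factor of histone mRNA processing, stood at 74.9, 74.03 and 76.5 CPM in Control and 48.6, 55.2 and 55.3 CPM in Pea3 TKO (log2 fold change -0.50, SE 0.13, adjusted p = 0.018, edgeR). Both groups were narrow and lay apart. Nasp, a histone chaperone, stood at 241, 275 and 287 CPM in Control and 175, 189 and 228 CPM in Pea3 TKO (-0.44, SE 0.13, adjusted p = 0.037, edgeR). Uhrf1, which recruits the maintenance DNA methyltransferase to newly copied DNA, stood at 561, 551 and 581 CPM in Control and 298, 448 and 453 CPM in Pea3 TKO (-0.50, SE 0.16, adjusted p = 0.046, edgeR). Among the fits without 1 sample, Casp8ap2 was called without Control 1, Pea3 TKO 2 or Pea3 TKO 3. Nasp was called without Control 1 or Pea3 TKO 3, and Uhrf1 without Pea3 TKO 3 only. Chaf1b, a subunit of the histone chaperone CAF-1, gave -0.56 with an adjusted p of 0.062. Atad2, Hells, Slbp and Cdca7, an ATPase that binds acetylated histones, a chromatin remodeller, the protein that binds the stem-loop of histone mRNAs and the partner of Hells, gave -0.31, -0.31, -0.16 and -0.05.

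The remaining genes were Wdr76, a WD-repeat protein, and Ubr7, of the UBR family of ubiquitin ligases. Ubr7 stood at 91.5, 88.4 and 105 CPM in Control and 86.7, 97.5 and 102 CPM in Pea3 TKO, which overlapped throughout (log2 fold change 0.01, SE 0.13). Wdr76 gave -0.51 (SE 0.36, adjusted p = 0.34, edgeR) from the lowest levels of the 52.

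**Figure D3:**
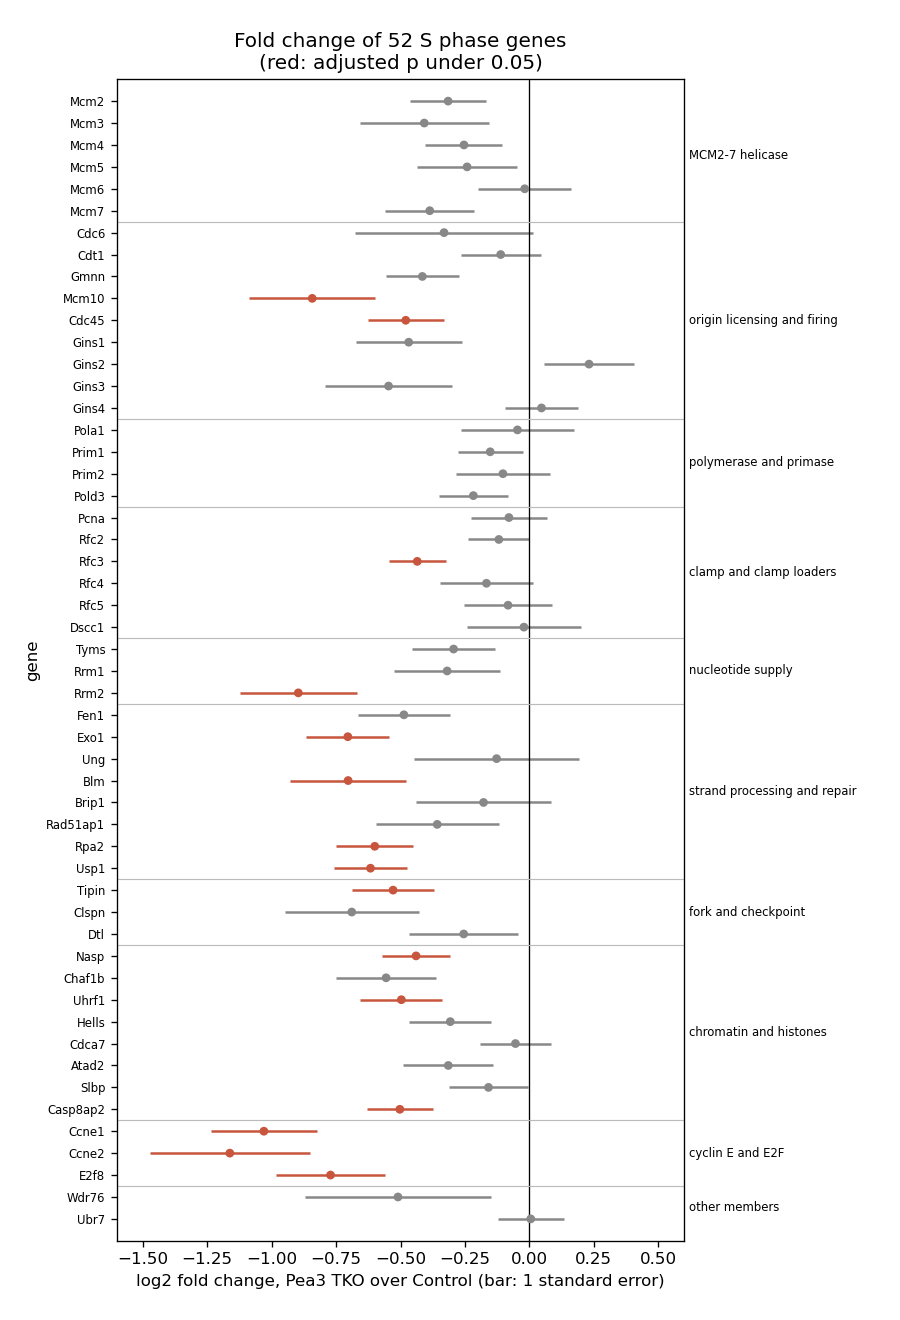
Log2 fold change of the 52 genes, Pea3 TKO over Control, with a bar of 1 standard error from the edgeR fit, in red where the adjusted p was under 0.05 and grouped by role. Values run from -1.16 for Ccne2 to 0.23 for Gins2, and 49 of the 52 points lie below 0.

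Levels were also set per kilobase of exonic length (RPKM, on TMM-scaled libraries) so that genes could be ranked against each other. In Control the 52 genes had a median of 30.4 RPKM against 6.88 RPKM for all genes tested. Rrm2 was the highest at 163 ± 28.1 RPKM (SD, n = 3), followed by Uhrf1 at 132 ± 3.66 RPKM, Tipin at 119 ± 7.18 RPKM and Mcm5 at 114 ± 11.5 RPKM. The gap between Rrm2 and Uhrf1 was about as large as the SD of Rrm2, that between Uhrf1 and Tipin was larger than either SD, and that between Tipin and Mcm5 was smaller. Wdr76 was the lowest at 1.32 ± 0.42 RPKM. In Pea3 TKO the highest was Mcm5 at 96.2 ± 26.4 RPKM, with Uhrf1, Mcm6 and Rrm2 at 93.9, 88.8 and 87.7 RPKM, differences much smaller than their SD. Rrm2 thus passed from rank 1 to rank 4 and Ccne1 from rank 18 at 50.8 ± 8.08 RPKM to rank 26 at 24.9 ± 6.57 RPKM.

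Ratios of genes within a sample do not depend on library size. The pairs were picked after their values had been seen, so that separation of the groups follows in part from that choice. The ratio of Ccne1 to Mcm6 counts was 0.327, 0.295 and 0.341 in Control and 0.156, 0.155 and 0.167 in Pea3 TKO. Pea3 TKO 1, which had the lowest level of both genes, lay with the other two here. The ratio of Mcm10 to Mcm6 was 0.158 to 0.212 in Control and 0.0918 to 0.125 in Pea3 TKO. The sum of Ccne1, Ccne2 and E2f8 over the sum of the 6 MCM2-7 genes was 0.0994 to 0.111 in Control and 0.0604 to 0.0670 in Pea3 TKO. The ratio of Cdt1 to Gmnn was 0.655 to 0.968 in Control and 0.981 to 1.07 in Pea3 TKO, the ranges nearly touching. Other pairs overlapped between the groups, namely Mcm2 to Mcm5, Exo1 to Fen1, Rfc3 to Rfc5 and Ccne1 to Ccne2. With 3 samples against 3 no exact permutation test can reach a two-sided p below 0.10, and the ratios are given without a test.

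**Figure D4:**
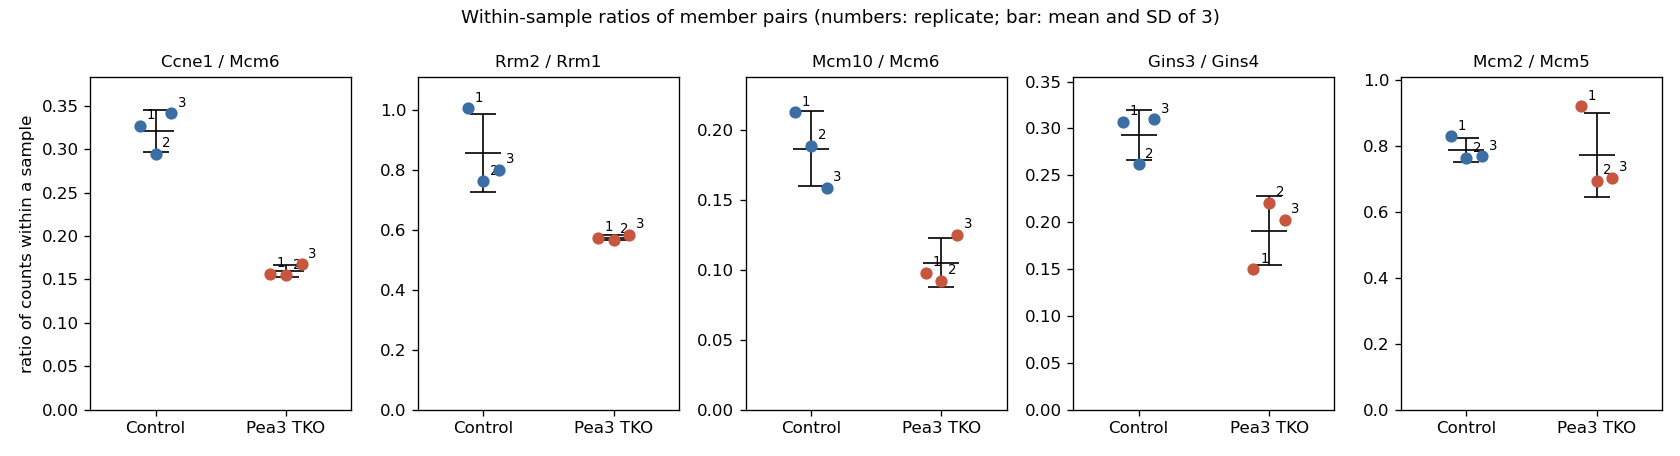
Ratio of the counts of 2 genes within each sample for 5 pairs picked after their values had been seen. Points are the 3 Control (blue) and 3 Pea3 TKO (red) samples numbered by replicate, and bars are the mean and SD. The groups lie apart for the first 4 pairs, with Ccne1 over Mcm6 at 0.295 to 0.341 against 0.155 to 0.167, and overlap for Mcm2 over Mcm5.

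Genes of replication outside the 52 were counted in the same fit. Of 42 such genes tested, 15 were lower (35.7%, against 11.3% of all genes tested) and 2 higher (4.8%, against 13.6%). Their median log2 fold change was -0.35. Cdc7, the kinase that fires licensed origins, fell by 0.97 on the log2 scale (adjusted p = 0.0048, edgeR), from 62.3 to 76.4 CPM in Control to 27.4 to 41.8 CPM in Pea3 TKO. Dna2, a nuclease-helicase of Okazaki fragment processing, fell by 1.52 (adjusted p = 0.0097), and Orc4, a subunit of the origin recognition complex, by 0.56 (adjusted p = 0.0085). Pold4, the small subunit of DNA polymerase delta, was higher by 1.75 (adjusted p = 0.0069), from 2.71 to 3.24 CPM to 8.34 to 12.5 CPM. Pold2, another subunit of that polymerase and with far more counts, fell by 0.64 (adjusted p = 0.018), from 219 to 266 CPM to 118 to 174 CPM, and Pole and Pole2, subunits of DNA polymerase epsilon, fell by 0.53 (adjusted p = 0.043) and 0.71 (adjusted p = 0.033). Without 1 sample the count of lower genes in this list ran from 7, without Control 3 or Pea3 TKO 1, to 17 without Pea3 TKO 3. It was 8 without Control 2 or Pea3 TKO 2, and 0 with the Y-linked term. In these fits, and in those given for the lists that follow, the share of all genes called in each direction was not counted.

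Of 13 further genes of nucleotide synthesis, 4 were lower (30.8%, against 11.3% of all genes tested) and none higher. Ctps, which makes CTP, fell by 1.05 on the log2 scale (adjusted p = 0.0038, edgeR), Dck, the deoxycytidine kinase, by 0.56 (adjusted p = 0.0097), Dut, which removes dUTP, by 0.54 (adjusted p = 0.019) and Dctd, the dCMP deaminase, by 0.98 (adjusted p = 0.023). Without Control 2 the count of lower genes was 2. Of 17 genes of the replication checkpoint, 3 were lower (17.6%, against 11.3% of all genes tested) and none higher. For a list of this size, that share of lower genes is not far above the background. The lower ones were Rad18 (-0.87, adjusted p = 0.012, edgeR), a ubiquitin ligase of Pcna, the Cdk-inhibiting kinase Wee1 (-0.55, adjusted p = 0.028) and Rad9a (-0.56, adjusted p = 0.031), of the checkpoint clamp. The count of lower checkpoint genes was 1 without Control 3, Pea3 TKO 1 or Pea3 TKO 2.

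Regulators of the step from G1 to S phase went both ways. Of 29 tested genes 5 were lower (17.2%, against 11.3% of all genes tested) and 4 higher (13.8%, against 13.6%). These shares are close to the background for the higher genes and not far above it for the lower ones. Cdkn2b, an inhibitor of Cdk4 and Cdk6, stood at 1.86, 0.810 and 0.650 CPM in Control and 21.0, 16.4 and 21.3 CPM in Pea3 TKO (log2 fold change 4.12, adjusted p = 0.00025, edgeR). No Control sample came near the Pea3 TKO samples, and Cdkn1a, which encodes the Cdk inhibitor p21, was also among the higher genes, at 29.6 to 64.3 CPM in Control and 90.9 to 115 CPM in Pea3 TKO. The other higher genes, Ccnd1 and Ccnd3, encode cyclins and not inhibitors. Ccnd1 rose by 1.52 (adjusted p = 0.013, edgeR), from 164 to 426 CPM in Control to 571 to 1028 CPM in Pea3 TKO. Ccnd3 rose by 0.53 (adjusted p = 0.026, edgeR), from 280 to 386 CPM to 421 to 539 CPM. Tfdp1, the DNA-binding partner of E2F proteins, fell by 0.64 (adjusted p = 0.0042), E2f4 by 0.70 (adjusted p = 0.0066) and E2f6 by 0.58 (adjusted p = 0.0083), both of which act mainly as repressors. The count of lower genes here was 3 without Control 2, Control 3 or Pea3 TKO 1.

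Genes of G2 and mitosis, which act later in the same cell cycle, were set beside them. Of 53 such genes, 16 were lower (30.2%, against 11.3% of all genes tested) and none higher, with a median log2 fold change of -0.35. Their summed level was 10567, 11910 and 11074 CPM in Control and 7981, 8196 and 10428 CPM in Pea3 TKO, so that here Pea3 TKO 1 and 2 lay together and Pea3 TKO 3 was near Control 1. Hmmr, a spindle protein, fell by 0.75 on the log2 scale (adjusted p = 0.0036, edgeR), Mki67, the proliferation marker, by 0.88 (adjusted p = 0.014), Ttk, a spindle checkpoint kinase, by 0.76 (adjusted p = 0.015) and Ncapd2, a condensin subunit, by 0.61 (adjusted p = 0.016). The ratio of the summed 52 replication genes to the summed G2 and mitosis genes was 0.668 to 0.877 in Control and 0.648 to 0.887 in Pea3 TKO, and overlapped fully. The count of lower G2 and mitosis genes was 3 without Control 2 or 3, 4 without Pea3 TKO 1 and 1 without Pea3 TKO 2. It was 25 without Pea3 TKO 3, 10 with upper-quartile scaling and 0 with the Y-linked term. These counts were not set against the share of all genes called lower in the same fits.

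Histone genes, whose products are needed in S phase, mostly gave values of the opposite sign. Of 68 genes with histone cluster symbols, 32 were tested. Of these 6 were higher (18.8%, against 13.6% of all genes tested) and none lower, so that the share called higher was not far above the background. Log2 fold changes were negative in 7 of the 32 (21.9%, against 49.2% of all genes tested). The median log2 fold change of the tested ones was 0.63, with a median SE of 0.59. Their summed level was 211, 342 and 266 CPM in Control and 405, 375 and 439 CPM in Pea3 TKO, without overlap. Hist1h2bc was higher by 1.32 on the log2 scale (adjusted p = 0.00078, edgeR), at 16.9 to 22.2 CPM in Control and 45.1 to 49.3 CPM in Pea3 TKO, and Hist3h2a by 1.20 (adjusted p = 0.0021). Hist1h1c and Hist2h2be were higher by 1.56 (adjusted p = 0.0049) and 1.57 (adjusted p = 0.0071). The libraries were made from poly-A selected RNA, whereas replication-dependent histone mRNAs end in a stem-loop without a poly-A tail, so these values do not measure the bulk of histone mRNA. With the Y-linked term 1 of these genes was called.

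**Figure D5:**
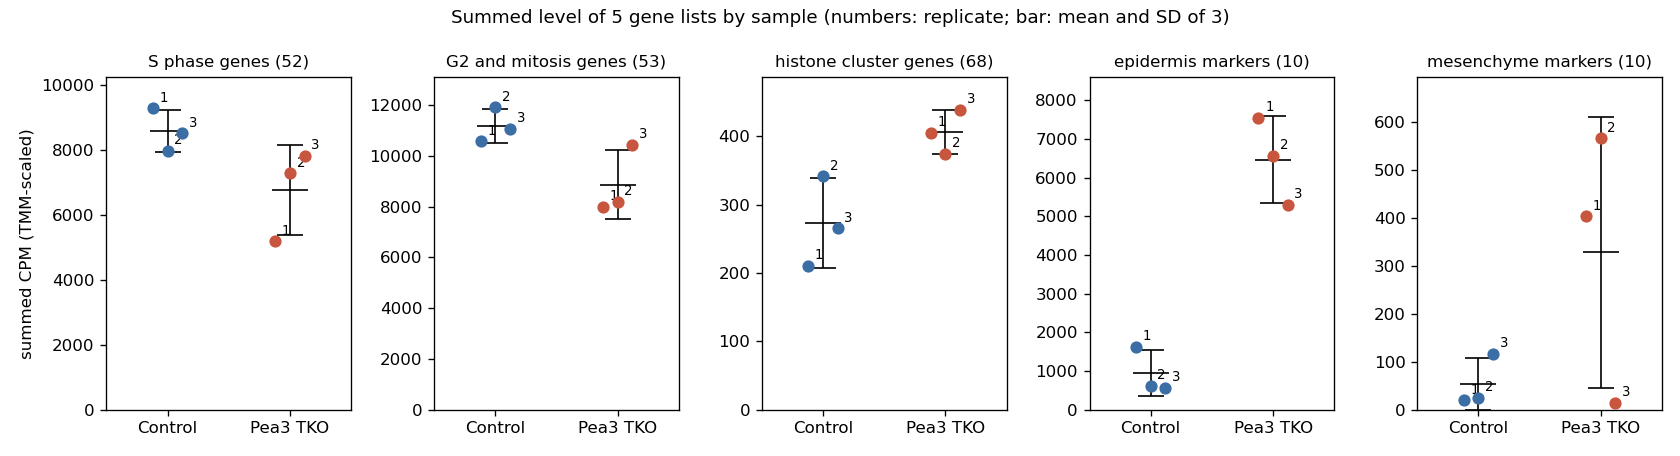
Summed CPM (TMM-scaled) of 5 gene lists in each sample, with points for the 3 Control (blue) and 3 Pea3 TKO (red) samples numbered by replicate and bars for the mean and SD. The 52 S phase genes and the G2 and mitosis genes are lower in Pea3 TKO, at 5175 to 7817 and 7981 to 10428 CPM, histone cluster and epidermal genes are higher, and mesenchymal markers are high in Pea3 TKO 1 and 2 only.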

How the data were processed

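RNA from 3 Control and 3 Pea3 TKO samples of laser-captured E14.5 lacrimal gland bud was amplified with the Ovation RNA-seq System V2 and made into poly-A selected TruSeq libraries, per the labels. The authors deposited raw counts, the number of reads on each gene symbol, as a separate unnormalized table for every sample. The submitters' processing notes name bcl2fastq 2.17, STAR 2.5.2b, featureCounts 1.5.0-p3, DESeq and the build mm10. The annotation and the strand setting are not given in the sources used here, so reads of genes that overlap on opposite strands may not be told apart.

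Genes were kept by filterByExpr of edgeR 4.0.16 (R 4.3.3, limma 3.58.1) with its defaults, which left 13087 of 23420. Counts were scaled by TMM and tested by the edgeR quasi-likelihood test on genotype alone, with p-values adjusted by Benjamini-Hochberg over all genes tested and a threshold of 0.05. The standard error of a log2 fold change was taken as its size over the root of the F statistic. Exonic lengths and gene positions came from GENCODE M21 (GRCm38) by symbol, and promoter windows from RefSeq (GRCm38.p6). The test was checked on simulated counts with known changes.

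The 52 genes and the other lists were chosen with earlier results of these data known, and the list of histone cluster genes, taken by symbol, was added after the counts had been opened. Named from each role group were the genes called, up to 4 in order of p, or else the gene with the highest mean CPM, together with the extremes of fold change and RPKM, and from each other list up to 4 genes called. Rrm1, Mcm6, the GINS subunits, Cdkn1a, Ccnd1, Ccnd3, Pold2, Pole, Pole2 and the gene pairs set in ratio were singled out after their values had been seen. Alternatives were RLE and upper-quartile scaling, no filter, a filter of at least 50 counts in 3 samples, DESeq2 1.42.0, the edgeR likelihood-ratio test, the replicate number as a block, the mean log2 CPM of 4 Y-linked genes as a term, and leaving out each sample.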

Additional observations from a re-analysis of the deposited data

How the results depend on the processing

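The number of the 52 genes called lower was 15 with RLE scaling, without the filter and with at least 50 counts in 3 samples, 12 with upper-quartile scaling and 18 with DESeq2 or the likelihood-ratio test, and no gene was called higher in any of the 14 alternative fits. Replicate numbers 1 to 3 occur in each group, but deviations of same-numbered samples correlated at 0.14, -0.06 and 0.05, so the numbers were not taken to pair them. With the replicate block 14 were called, Blm passing to an adjusted p of 0.055. Without 1 sample the count ran from 5 to 20 and the median log2 fold change from -0.49 to -0.15. The count of all genes called, in either direction, ran from 1948 to 3344. Ccne1, Exo1 and Usp1 were called in all 6 such fits. With the Y-linked term, 865 of all genes and 0 of the 52 were called by edgeR. In that fit 0 genes were called lower among the other replication, nucleotide, G1/S, checkpoint and mitosis genes, where 9, 2, 5, 1 and 3 were lower at an unadjusted p under 0.05, and 1 histone gene was called higher. The cause was not tested. Without 1 sample the counts of these 6 lists ran from 7 to 17, 2 to 5, 3 to 6, 1 to 4, 1 to 25 and 4 to 5, and with upper-quartile scaling mitosis genes gave 10. All 15 called genes stayed negative in all 14. Signs turned for others, at 0.017 for Mcm6 and 0.014 for Dscc1 with upper-quartile scaling, and with the Y-linked term at 0.15 for Mcm6, 0.12 for Cdc6, 0.045 for Cdt1, 0.38 for Pola1, 0.010 for Prim1, 0.23 for Prim2, 0.083 for Pcna, 0.20 for Rfc4 and for Rfc5, 0.29 for Dscc1, 0.021 for Tyms, 0.0017 for Rrm1, 0.30 for Ung, 0.19 for Brip1, 0.0072 for Rad51ap1 and 0.033 for Dtl. Without 1 sample, ranges that crossed 0 were -0.14 to 0.18 for Mcm6, -0.60 to 0.021 for Cdc6, -0.22 to 0.022 for Cdt1, -0.054 to 0.14 for Gins4, -0.33 to 0.16 for Pola1, -0.31 to 0.040 for Prim2, -0.17 to 0.062 for Pcna, -0.25 to 0.10 for Rfc5, -0.21 to 0.14 for Dscc1, -0.42 to 0.00034 for Ung, -0.42 to 0.020 for Brip1, -0.15 to 0.062 for Cdca7, -0.24 to 0.018 for Slbp and -0.048 to 0.083 for Ubr7.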
